A study of Mus musculus with 10 samples.

Results

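The genes described here are the 4 secreted factors through which bone and connective tissue cells govern osteoclast formation: *Tnfsf11*, which encodes RANKL, *Tnfrsf11b*, which encodes osteoprotegerin (OPG), *Csf1* and *Il34*. They were taken by symbol from the table of 23080 genes, and all 4 were present and passed the filter on low counts. Gene expression had been measured by bulk RNA-seq in the anterior fontanelle (AF), the soft junction between the frontal and parietal bones, of mouse embryos at E18.5. The tissue held suture connective tissue and bone. Of the 10 libraries, 5 are labelled wild type and are described in the study's text as littermate controls, with no allele given in the labels. The other 5 are labelled *Wnt1-Cre; Fgfr2* fl/fl, in which Cre driven by *Wnt1* sequences recombines a floxed *Fgfr2* allele, giving a functional null receptor in neural crest-derived cells. Osteoclasts and macrophages are of blood origin and lie outside that lineage. The labels name no treatment. The comparison asks whether the levels of these factors differed in the AF of the mutants.

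RANKL is a membrane-bound or shed ligand made by osteoblasts, osteocytes and mesenchymal cells. It binds RANK on osteoclast precursors and drives their fusion and maturation through TRAF6, NF-kB, c-Fos and NFATc1. OPG is a soluble decoy that binds RANKL and keeps it from RANK, so the balance of both factors is commonly summarised as a ratio. CSF1 and IL-34 are unrelated in sequence but share a receptor, CSF1R, which keeps macrophages and osteoclast precursors alive and dividing. In the growing skull, osteoclasts resorb bone as the calvarial plates are reshaped.

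*Tnfsf11* was the member that separated the groups. It was lower in each of the 5 mutant-labelled libraries than in any of the 5 control-labelled ones, at about 0.671 times the control level. *Il34* was higher in all mutant-labelled libraries than in 4 of the 5 control-labelled ones, *Csf1* was abundant with groups that overlapped, and *Tnfrsf11b* varied widely within both groups. By the edgeR test adjusted over all 16267 genes tested, 0 of the 4 members passed at 0.05, where 0.0184% of all genes were called. Without adjustment, *Tnfsf11* was lower and *Il34* higher at p under 0.05, where 3.82% of genes were called lower and 3.68% higher. By the DESeq2 Wald test, *Tnfsf11* alone of the 4 was called, as lower, where 0.264% of genes were called lower.

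Total counts ranged from 20774645 to 28515403 per library, and from 15028485 to 20156455 without ribosomal RNA genes. *Fgfr2*, the targeted gene, went against the labels: it was at 199.5 ± 21.7 CPM (counts scaled to a common library size after TMM normalization, SD, n = 5) in control-labelled and 318 ± 32.8 CPM (n = 5) in mutant-labelled libraries, with no overlap (log2 fold change 0.67, edgeR adjusted p = 0.0487). Counts summed per gene do not separate recombined from intact transcripts, so the groups are named below by their labels, and each direction given below rests on those labels. Beside *Fgfr2*, 12 of 12 osteoblast genes had lower means in the mutant-labelled libraries, among them *Sp7*, an osteoblast transcription factor (log2 fold change -0.24, edgeR adjusted p = 0.522). The 6 of 6 connective tissue genes with higher means included *Scx* (0.35, adjusted p = 0.656) and *Tnmd* (0.58, without overlap, adjusted p = 0.326), both genes of tendon and ligament. None of these values measures the recombination itself. The tissue label was checked by markers: osteoblast genes were abundant, with *Sp7* at 215.8 and 183 CPM in the control- and mutant-labelled means, and 6 of 6 fontanelle connective tissue genes were detected. The summed level of 7 keratinocyte genes was 6.93 to 14.7 CPM. The summed level of 7 neuron genes was 67.1 to 164 CPM in control-labelled libraries and 68.8 to 479 CPM in mutant-labelled ones, highest in mutant-labelled replicate 2. Skeletal muscle genes summed to between 14.4 and 527 CPM, with the highest values in control-labelled replicate 2 and mutant-labelled replicate 1. The part of these cell types in the results below was not tested.

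*Tnfsf11* lies on chromosome 14 (GRCm38 chr14:78277445-78308043, minus strand, a protein-coding gene with 2236 exonic bases), and no other annotated gene overlaps its span. *Csf1* lies on chromosome 3 (GRCm38 chr3:107741048-107760469, minus strand, protein-coding, 5281 exonic bases), also without an overlapping gene. The 120 bases before the start of each are shown because these are the ligands whose ratio separated the groups (below). They are RefSeq sequences of build GRCm38.p6, read 5′ to 3′ on the minus strand, from chr14:78308044-78308163 and chr3:107760470-107760589. Capitals mark matches to the motifs searched:
Tnfsf11: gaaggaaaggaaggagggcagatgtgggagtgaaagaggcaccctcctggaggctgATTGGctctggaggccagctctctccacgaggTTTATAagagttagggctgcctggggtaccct
Csf1: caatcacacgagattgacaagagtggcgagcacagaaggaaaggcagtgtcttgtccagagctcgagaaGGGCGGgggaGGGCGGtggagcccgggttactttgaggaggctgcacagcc

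The motifs searched, on both strands of the 250 bases before the start, were the TATA box with the letters TATAAA, the inverted or direct CCAAT box, the GC box with the letters GGGCGG, the RUNX core with the letters TGTGGT, the AP-1 site with the letters TGACTCA and the CRE with the letters TGACGTCA. The *Tnfsf11* window held 1 match to the TATA box letters, starting 32 bases before the start and on the opposite strand, as do 12.4% of 32851 promoters for either strand. It also held 1 CCAAT match on the opposite strand, starting 64 bases before the start, a motif found in 33.8% of promoters. The *Csf1* window held 2 GC box matches, a motif found in 32.7% of promoters, and no TATA box letters. Neither window held the letters searched for RUNX, AP-1 or CRE, which describes these windows only. *Tnfrsf11b* and *Il34* had no entry among the promoter sequences used.

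Per kilobase of exon, the control-labelled libraries gave *Csf1* the highest level of the 4 genes, at 18.4 ± 2.57 CPM per kb (SD, n = 5), above 91.0% of 15960 genes with a length. *Tnfsf11* followed at 3.40 ± 0.405 CPM per kb (n = 5), then *Tnfrsf11b* at 2.48 ± 0.496 (n = 5) and *Il34* at 1.10 ± 0.278 (n = 5). In the mutant-labelled libraries *Csf1* stood at 17.0 ± 1.32 CPM per kb, *Tnfrsf11b* at 2.42 ± 0.796, *Tnfsf11* at 2.28 ± 0.207 and *Il34* at 1.45 ± 0.114 (each n = 5). *Tnfsf11* and *Tnfrsf11b* were thus neighbours in the order. Per length, *Tnfsf11* was above *Tnfrsf11b* within 5 of 5 control-labelled libraries and within 3 of 5 mutant-labelled ones, and the ranges of their levels overlapped in both groups.

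*Tnfsf11*, the osteoclast-inducing ligand, was at 7.75, 6.52, 7.78, 8.91 and 7.02 CPM in control-labelled replicates 1 to 5. In mutant-labelled replicates 1 to 5 it was at 5.67, 5.21, 4.75, 4.51 and 5.34 CPM. The highest mutant-labelled value lay below the lowest control-labelled one, a complete separation towards lower levels that 0.701% of all tested genes shared. The group means were 7.59 ± 0.906 and 5.10 ± 0.463 CPM (SD, n = 5 each), from 166 to 218 and 106 to 131 counts per library. The log2 fold change was -0.58 (SE 0.109, 95% interval -0.81 to -0.34). Its p-value of 0.00021 in the edgeR test ranked 14 of 16267 genes and became 0.184 after Benjamini-Hochberg adjustment over all of them. The two-sided exact permutation test of mean log2 CPM gave p = 0.00794 (n = 5 per group), the smallest that the groupings of these libraries can give. The DESeq2 Wald test gave an adjusted p = 0.0051, so the call depends on the tool. In this bulk tissue, fewer cells making a transcript and less transcript per cell cannot be told apart.

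**Figure D1:**
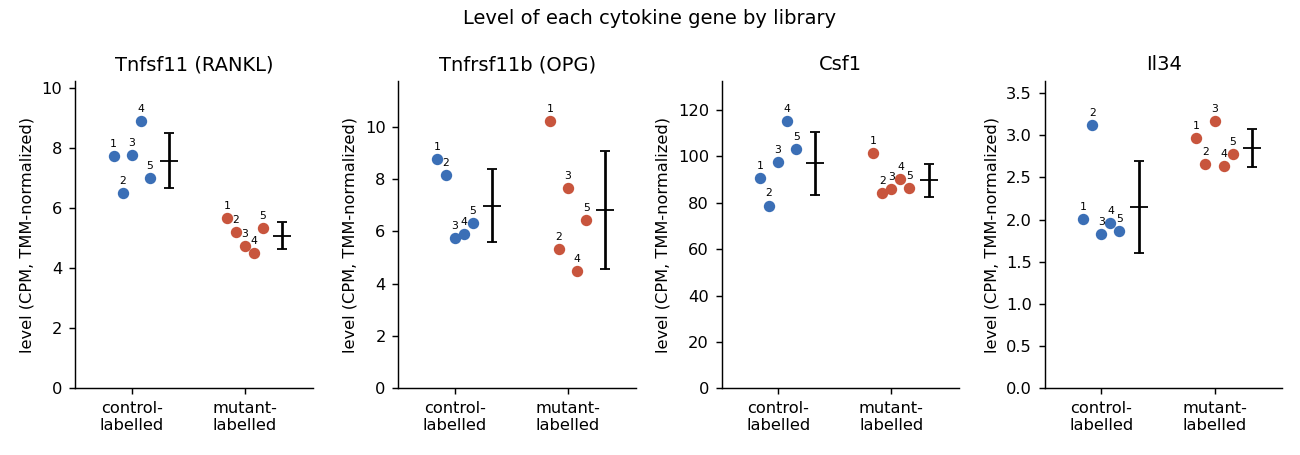
Level (TMM-normalized CPM, linear axes from 0) of the 4 genes in each library, with the replicate number beside each point and the mean ± SD of 5 libraries as a black bar. *Tnfsf11* spans 6.52 to 8.91 CPM in control-labelled and 4.51 to 5.67 CPM in mutant-labelled libraries without overlap, and *Il34* overlaps only through control-labelled replicate 2 at 3.12 CPM.

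*Tnfrsf11b*, the gene for the decoy receptor OPG (GRCm38 chr15:54250619-54278484, minus strand, protein-coding, 2818 exonic bases), was at 8.78, 8.16, 5.74, 5.89 and 6.34 CPM in control-labelled replicates 1 to 5. In mutant-labelled replicates 1 to 5 it was at 10.2, 5.33, 7.66, 4.47 and 6.45 CPM. The highest and the lowest of the 10 values were both mutant-labelled, and the groups overlapped throughout. The means were 6.98 ± 1.40 and 6.82 ± 2.24 CPM (SD, n = 5 each). The coefficient of variation was 20.0% and 32.9% in the groups, beside a counting error of 7.70% at its mean count and a common biological coefficient of variation of 18.9% over all genes tested. The log2 fold change was -0.037 (SE 0.213, 95% interval -0.50 to 0.43, edgeR adjusted p = 0.979), and the exact permutation test gave p = 0.77 (n = 5 per group). The interval leaves room for a difference as large as that of *Il34* in either direction. Leaving out single libraries turned the sign of this value (-0.22 to 0.090).

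The ratio of *Tnfsf11* to *Tnfrsf11b* counts within a library needs no normalization between libraries. It was 0.882, 0.798, 1.36, 1.51 and 1.11 in control-labelled replicates 1 to 5. It was 0.555, 0.978, 0.620, 1.01 and 0.829 in mutant-labelled replicates 1 to 5. The ratio exceeded 1 in 3 control-labelled libraries and in 1 mutant-labelled library. These counts are not scaled for the unlike exonic lengths of the genes. Per length, the ratio exceeded 1 in 5 control-labelled and 3 mutant-labelled libraries. The 3 highest values were control-labelled and the 2 lowest mutant-labelled, with the other 5 libraries intermingled. The exact 95% binomial intervals, which cover counting error only, ran from 1.22 to 1.88 for control-labelled replicate 4, the highest, and from 0.441 to 0.695 for mutant-labelled replicate 1, the lowest. The means were 1.13 ± 0.304 and 0.798 ± 0.205 (SD, n = 5 each). The mean log2 ratio was lower by 0.50 in the mutant-labelled libraries (difference -0.50, 95% interval -1.12 to 0.12 by inversion of the permutation test). The two-sided exact permutation test gave p = 0.0952 (n = 5 per group), also 0.0952 after adjustment over the 3 ratios tested, so the difference did not exceed the spread between libraries. It pointed the same way in each of the 10 fits that left out 1 library (-0.62 to -0.38, exact p 0.0635 to 0.19).

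**Figure D2:**
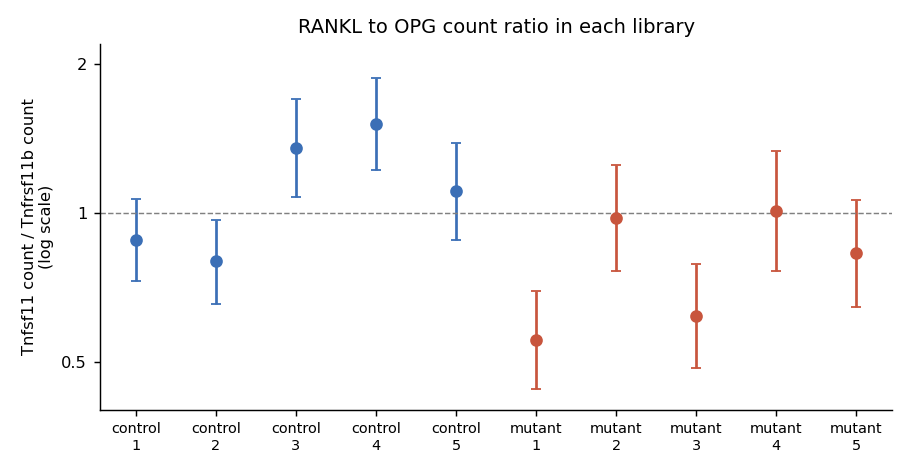
Ratio of *Tnfsf11* to *Tnfrsf11b* counts, not scaled for gene length, in each library on a log axis. Bars are exact 95% binomial intervals for counting error, and the dashed line at 1 marks equal counts. Control-labelled libraries (blue) span 0.798 to 1.51 and mutant-labelled libraries (red) 0.555 to 1.01, and the groups overlap.

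*Csf1*, the main ligand of CSF1R, was at 90.7, 78.8, 97.5, 115 and 103 CPM in control-labelled replicates 1 to 5. In mutant-labelled replicates 1 to 5 it was at 101, 84.0, 86.0, 90.0 and 86.3 CPM. Every mutant-labelled value lay inside the control-labelled range. With 1955 to 2816 counts per library, counting error was 2.10%, and the spread between libraries (coefficient of variation 13.97% and 7.77%) set the precision. The means were 97.0 ± 13.6 and 89.5 ± 6.96 CPM (SD, n = 5 each). The log2 fold change was -0.12 (SE 0.0932, 95% interval -0.32 to 0.088, edgeR adjusted p = 0.808) and p = 0.317 by the exact permutation test. The -0.58 of *Tnfsf11* lay outside that interval. Leaving out single libraries moved the value from -0.047 without control-labelled replicate 4 to -0.17 without control-labelled replicate 2 (edgeR adjusted p = 0.991 and 0.597).

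*Il34*, the second ligand of CSF1R, is the least abundant of the 4 (GRCm38 chr8:110741829-110805924, minus strand, protein-coding, 1959 exonic bases). Its exons share 22 bases with *Gm15894* and 75 bases with *Gm15895* on the opposite strand, and since no source gives the strand setting of the counting, reads in those bases are uncertain. It was at 2.002, 3.12, 1.83, 1.96 and 1.86 CPM in control-labelled replicates 1 to 5, and at 2.97, 2.66, 3.17, 2.64 and 2.78 CPM in mutant-labelled replicates 1 to 5. All mutant-labelled values exceeded 4 of the 5 control-labelled ones, and control-labelled replicate 2 lay among the mutant-labelled values. The means were 2.15 ± 0.545 and 2.84 ± 0.223 CPM (SD, n = 5 each), from 43 to 91 counts per library, where counting error alone is 12.8%. The log2 fold change was 0.40 (SE 0.173, 95% interval 0.017 to 0.78, edgeR p = 0.042, adjusted p = 0.656), and the exact permutation test gave p = 0.0397 (n = 5 per group). The unadjusted edgeR p stayed under 0.05 in 3 of the 10 fits that left out 1 library. Without control-labelled replicate 2 the log2 fold change was 0.58 (edgeR adjusted p = 0.263). Without any other single control-labelled library the exact permutation p was 0.0635 to 0.0714.

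The balance among the ligands was also read within libraries. The ratio of *Csf1* to *Tnfsf11* counts was 11.7, 12.1, 12.5, 12.9 and 14.7 in control-labelled replicates 1 to 5, and 17.9, 16.1, 18.1, 19.9 and 16.2 in mutant-labelled replicates 1 to 5. The groups did not overlap. The mean log2 ratio was higher by 0.46 (1.38-fold, 95% interval 0.29 to 0.64) in the mutant-labelled libraries, with exact permutation p = 0.00794 (n = 5 per group) and 0.0238 after adjustment over the 3 ratios. This ratio shares its *Tnfsf11* counts with the comparison above and is no separate evidence on that gene. The ratio of *Csf1* to *Il34*, the ligands of CSF1R, was 45.3, 25.2, 53.3, 58.7 and 55.4 in control-labelled replicates 1 to 5 and 34.1, 31.5, 27.2, 34.1 and 31.0 in mutant-labelled replicates 1 to 5. All mutant-labelled ratios were below 4 of the 5 control-labelled ones. The log2 difference was -0.54 (95% interval -0.94 to 0.01), with exact permutation p = 0.0556 (n = 5 per group) and 0.0834 after adjustment. Without control-labelled replicate 2 it was -0.75 with exact permutation p = 0.00794.

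Among the receptors and binding partners of these factors, 5 of 6 genes had lower means in mutant-labelled libraries, 0 passed the adjusted test and 2 were lower at an unadjusted p under 0.05. The median log2 fold change of the 6 was -0.15, beside 0.00073 over all genes tested. *Tnfrsf11a*, which encodes RANK, was at 18.2 ± 1.81 and 16.6 ± 1.83 CPM (SD, n = 5 each, log2 fold change -0.13, edgeR adjusted p = 0.776). *Csf1r* was at 216.2 ± 26.8 and 191 ± 13.9 CPM (log2 fold change -0.18, adjusted p = 0.669). *Ptprz1*, a receptor phosphatase that can bind IL-34, was at 81.6 ± 7.91 and 66.5 ± 5.19 CPM (log2 fold change -0.29, adjusted p = 0.367). *Lgr4*, a further receptor for RANKL, was at 47.9 ± 2.99 and 40.5 ± 6.28 CPM (log2 fold change -0.24, adjusted p = 0.635). *Tnfsf10*, which encodes TRAIL, a further ligand of OPG, stood at 2.78 and 2.73 CPM, and *Sdc1*, a heparan sulfate proteoglycan, at 93.9 and 94.6 CPM.

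**Figure D3:**
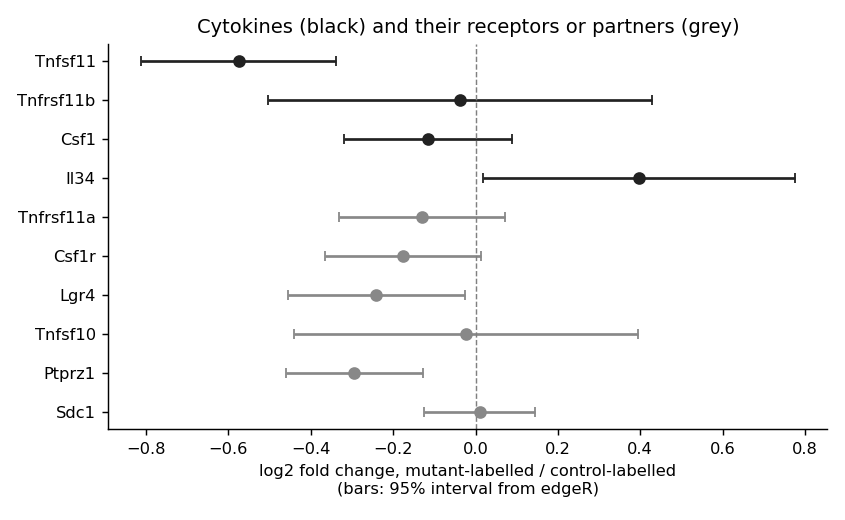
Log2 fold change (mutant-labelled over control-labelled, n = 5 each) with its 95% interval from edgeR for the 4 cytokine genes (black) and 6 receptors or binding partners (grey). *Tnfsf11* at -0.58 lies farthest from the dashed line at 0, and the intervals of *Tnfrsf11b* and *Csf1* cross that line.

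Downstream of RANK and CSF1R, 13 of 21 signaling genes had lower means, with a median log2 fold change of -0.034, 0 adjusted calls and 1 unadjusted call. That gene was *Fos*, an immediate-early transcription factor, at 19.0 ± 7.55 and 12.04 ± 3.16 CPM (SD, n = 5 each, log2 fold change -0.65, edgeR adjusted p = 0.634). *Btk*, a kinase that couples RANK to calcium signaling, had a log2 fold change of -0.24. At the upper end *Relb*, an NF-kB subunit, had a log2 fold change of 0.046 and *Plcg2*, a phospholipase, 0.070. *Nfatc1*, the transcription factor that RANK signaling induces, was at 158 ± 14.5 and 149 ± 21.9 CPM (adjusted p = 0.879), and the adaptor *Traf6* at 22.6 and 22.4 CPM. Regulators of RANKL and OPG were listed as 21 genes, of which 18 were tested. Of these 13 had lower means, 0 passed the adjusted test, 4 were lower at an unadjusted p under 0.05 and 1 was higher. The lower ones were *Vdr*, the vitamin D receptor, at 215.7 ± 45.1 and 176.7 ± 2.46 CPM, *Pth1r*, the parathyroid hormone receptor, at 184.8 ± 8.14 and 161 ± 13.1 CPM, *Pthlh*, its ligand, at 2.61 and 1.76 CPM, and *Sost*, a WNT inhibitor of osteocytes, at 72.3 ± 23.7 and 48.6 ± 8.86 CPM (adjusted p 0.522 to 0.646). The higher one was *Creb1*, a cAMP-responsive transcription factor, with a log2 fold change of 0.13. *Ebf2*, a mesenchymal transcription factor, had a log2 fold change of -0.58, the lowest of the list, with adjusted p = 0.669. The highest log2 fold changes of the list were those of *Ptger4*, a prostaglandin E2 receptor, at 0.28 and *Lef1*, a WNT effector, at 0.15.

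Osteoclast markers were measured in the same libraries. Of 14 genes, 13 had lower means in mutant-labelled libraries, with a median log2 fold change of -0.16, 0 adjusted calls and 2 unadjusted ones. These were *Calcr*, the calcitonin receptor, at 11.3 ± 3.40 and 7.74 ± 1.01 CPM, and *Itgb3*, an integrin subunit, at 112.6 ± 19.4 and 91.3 ± 8.83 CPM. *Mmp9*, a matrix metalloprotease, was at 1633 ± 305 and 1448 ± 77.1 CPM. *Acp5*, tartrate-resistant acid phosphatase, was at 782 ± 166 and 704 ± 41.7 CPM. *Ctsk*, the collagen-degrading cathepsin K, was at 299.1 ± 34.0 and 316 ± 35.4 CPM, the 1 gene of the list with a higher mean. The summed level of the list was 2486 to 3977 CPM in control-labelled and 2762 to 3101 CPM in mutant-labelled libraries, with the mutant-labelled range inside the control-labelled one (exact permutation p = 0.294). Of 12 macrophage genes 10 had lower means, with a median of -0.10 and a summed level of 329 to 465 and 333 to 427 CPM. *Lyz2*, lysozyme, was higher without overlap (43.6 ± 10.7 and 67.6 ± 8.40 CPM, log2 fold change 0.63, adjusted p = 0.336).

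Osteoblasts are among the cells that make RANKL. All 12 genes of the list had lower means in mutant-labelled libraries, with a median log2 fold change of -0.23, 0 adjusted calls and 6 unadjusted ones. *Ibsp*, bone sialoprotein, was at 1704 ± 185.4 and 1137 ± 266 CPM (log2 fold change -0.58). *Dmp1*, an osteocyte matrix protein, was at 523 ± 92.3 and 350.4 ± 57.7 CPM (log2 fold change -0.58). *Alpl*, alkaline phosphatase, was at 504 ± 48.9 and 386 ± 46.0 CPM without overlap (log2 fold change -0.38, edgeR adjusted p = 0.336). *Col1a1*, the most abundant, was at 66247 and 64070 CPM. The mean log2 CPM of the 12 genes was 9.09 to 9.42 in control-labelled and 8.81 to 9.19 in mutant-labelled libraries, a difference of -0.27 (exact permutation p = 0.0397). That mean weights the genes equally. Their summed level, most of it *Col1a1* and *Col1a2*, was 96088 to 113981 CPM in control-labelled and 79375 to 116375 CPM in mutant-labelled libraries, a log2 difference of -0.062 with overlapping groups (exact permutation p = 0.698).

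Each member was then read relative to that mean within its library. *Tnfsf11* lay -6.33 ± 0.0489 log2 units from the osteoblast mean in control-labelled libraries and -6.63 ± 0.216 in mutant-labelled ones (SD, n = 5 each). The difference was -0.30 with exact permutation p = 0.00794. The groups did not overlap, although the gap between them was narrow (lowest control-labelled value -6.377, highest mutant-labelled -6.383). Leaving out single libraries gave -0.36 to -0.23, with exact permutation p up to 0.0556, reached without control-labelled replicate 4. With the osteoblast mean as a covariate in the edgeR fit, the log2 fold change of *Tnfsf11* was -0.44 (SE 0.156). Its edgeR p was 0.0179 before adjustment and 0.999 after it. The adjusted p of *Tnfrsf11b*, *Csf1* and *Il34* in that fit was also 0.999. Relative to the same mean *Il34* was higher by 0.70 (exact permutation p = 0.0317), *Tnfrsf11b* differed by 0.20 (p = 0.46) and *Csf1* by 0.17 (p = 0.19). This scale was chosen after the values were seen, and it follows the list of genes it is set against: *Ibsp* and *Dmp1* were each as much lower as *Tnfsf11*. Fontanelle connective tissue genes went the other way, with 6 of 6 higher, 5 of them at an unadjusted p under 0.05 and a median of 0.36. The summed level of these 6 was 476 to 624.9 and 559 to 760 CPM (exact permutation p = 0.0397). Chondrocyte genes had a median of 0.37, with 6 of 7 higher. At an unadjusted edgeR p under 0.05, 3 of the 7 were called higher, beside 3.68% of all genes tested. The summed level of the 7 was 295 to 385 CPM in control-labelled and 397 to 447 CPM in mutant-labelled libraries, without overlap (exact permutation p = 0.00794). The part of a different mix of tissue in the level of *Tnfsf11* was not tested beyond these values.

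**Figure D4:**
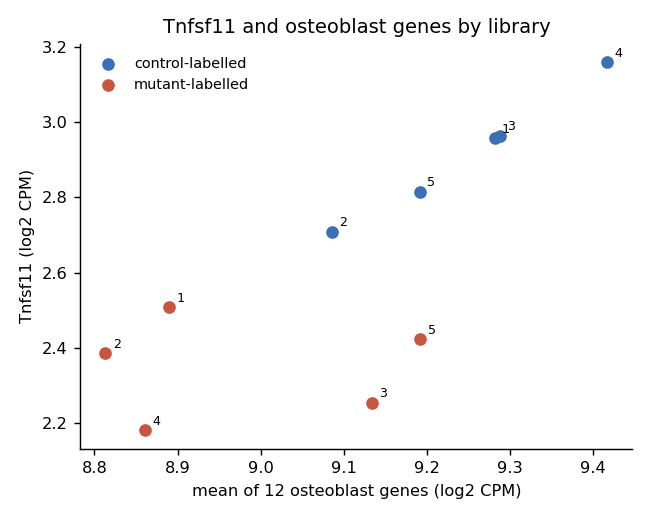
*Tnfsf11* (log2 CPM) against the mean log2 CPM of 12 osteoblast genes in each library, with replicate numbers beside the points. The 5 mutant-labelled libraries (red) lie below the 5 control-labelled ones (blue), and mutant-labelled replicates 3 and 5 do so at osteoblast levels inside the control-labelled range.

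**Figure D5:**
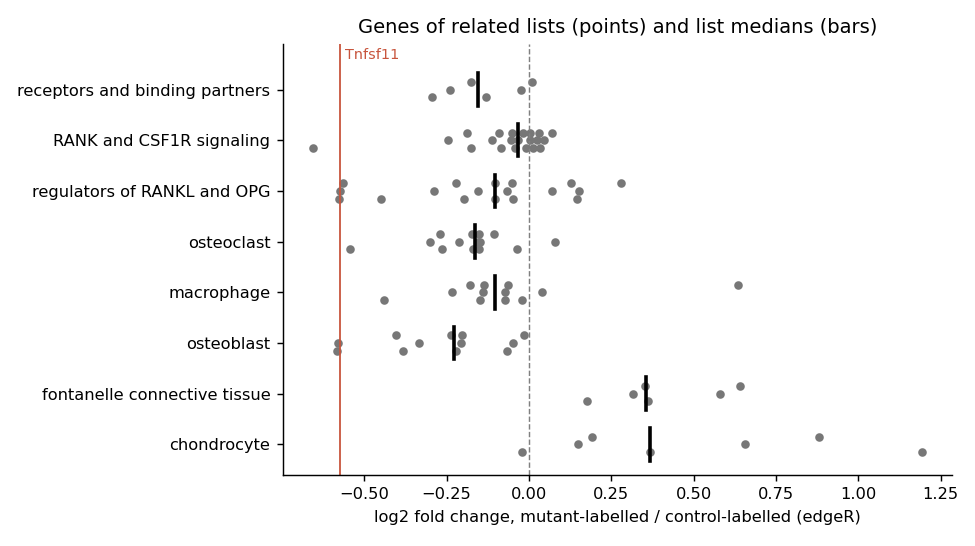
Log2 fold changes (mutant-labelled over control-labelled, edgeR) of the tested genes in each list as grey points, with list medians as black bars and a red line at the -0.58 of *Tnfsf11*. The osteoclast and osteoblast medians are -0.16 and -0.23, and the connective tissue and chondrocyte medians are 0.36 and 0.37.

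The members were also compared with one another across the 10 libraries. Because the *Tnfsf11* values fell into separate clusters by label, its relations to the other members are given as deviations from the mean of each label, a scale added after the values were seen, with exact permutation within labels. Pearson r of the deviations was 0.68 with *Csf1* (p = 0.0562, adjusted over the 6 pairs 0.169; Spearman rho = 0.59, p = 0.113), -0.44 with *Il34* (p = 0.331; rho = -0.10, p = 0.808) and 0.15 with *Tnfrsf11b* (p = 0.677; rho = 0.16, p = 0.662). Without the 2 libraries farthest from the median of *Tnfsf11* these were 0.59, -0.054 and 0.049. Over all libraries, the other 3 of the 6 pairs were *Csf1* with *Il34* (Pearson r = -0.65, permutation p = 0.0415, adjusted 0.124; Spearman rho = -0.67, permutation p = 0.0387, adjusted 0.131), *Tnfrsf11b* with *Il34* (r = 0.29, p = 0.414; rho = 0.48, p = 0.165) and *Tnfrsf11b* with *Csf1* (r = -0.056, p = 0.878; rho = -0.0061, p = 1.0). Without the 2 libraries farthest from the median of the first gene these r values were -0.51, 0.31 and -0.41. As deviations the 3 pairs gave r = -0.62 (exact permutation p = 0.202), 0.51 (p = 0.0404, adjusted 0.169; rho = 0.71, adjusted p = 0.087) and -0.098 (p = 0.761) in the same order. Without the 2 farthest libraries these came to -0.016, 0.61 and -0.57, so the first and the last depend on those libraries. None of the 6 pairs passed the adjustment on either scale.

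The genes most like each member across the 10 libraries, by Pearson r of log2 CPM among 11014 or 11015 genes with a mean of at least 5 CPM, are given as a description. The libraries share the group difference and their depth in these values. For *Tnfsf11* they were *Spns2* (r = 0.93), *Shc2* (r = 0.91) and *Lgr6* (r = 0.90). *Lgr6*, a receptor for R-spondins, was at 48.4 and 33.9 CPM in the control- and mutant-labelled means, a log2 fold change of -0.51 with adjusted p = 0.184. For *Tnfrsf11b* they included *Tmem132c* (r = 0.96) and *Zfp574* (r = 0.95), with log2 fold changes of -0.077 and -0.00096. For *Csf1* they were *Ctsc* (r = 0.95), *H2-D1* (r = 0.93) and *Gltp* (r = 0.93). *Ctsc* encodes a lysosomal protease and *H2-D1* a class I histocompatibility antigen. For *Il34* they were *Abtb2* (r = 0.94), *Pacs1* (r = 0.94) and *Smad2* (r = 0.93), the last a transducer of TGF-beta signals.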

How the data were processed

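The authors isolated RNA from the AF, made stranded libraries and sequenced them as single reads. The authors deposited 1 table of estimated counts (expected counts) per gene, not scaled between libraries, in which 67.2% of values are whole numbers (tolerance 1e-09) and the lowest gene sum over the 10 libraries is 10. The submitters' processing notes name Partek and mm10; the aligner, counter and strand setting are not given in the sources used here. No value column was left without a library, and 22296 of 22533 symbols had the GENCODE M21 start and end.

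Estimated counts were rounded. After filtering on expression with edgeR (16267 genes tested, 6813 not), TMM factors were computed, and the labels were compared in 1 quasi-likelihood fit without covariates, with Benjamini-Hochberg adjustment (threshold 0.05). R 4.3.3, edgeR 4.0.16, limma 3.58.1, DESeq2 1.42.0, Python 3.11.15, SciPy 1.17.1 and matplotlib 3.10.9 were used. Log2 CPM used a prior count of 0.5. Single values and ratios were compared by two-sided exact permutation tests over every grouping of the libraries, and correlations with 100000 resamples. The code was tested on simulated data. The series text speaks of animals without giving litters. A figure legend of the study describes the samples as littermate pairs (n = 5), but no label says which libraries form a pair. The tests without a block therefore ignore any pairing, and their p-values are set against the spread between these libraries. The members, gene lists and tests were chosen with earlier results of these data known. Named genes were the 4 members, *Fgfr2*, the 2 highest and 2 lowest fold changes of each pathway list with at least 1 CPM, defining genes of the osteoclast, macrophage and osteoblast lists, and the 3 genes most correlated with each member at a mean of at least 5 CPM. Other pathway genes with an unadjusted call, and *Tnfrsf11a*, *Csf1r*, *Nfatc1*, *Traf6*, *Scx* and *Tnmd*, were added after their values were seen. A few genes that this rule names are not reported here. T lymphocyte markers, of which 2 of 7 could be tested, summed to 3.50 to 5.92 CPM, and endothelial genes had a median log2 fold change of 0.0015.

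Alternatives covered other normalizations, tests, filters, covariates, prior counts, thresholds, a replicate block and leaving out each library.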

Additional observations from a re-analysis of the deposited data

Results flagged for a closer look

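In 14 groups of 5 libraries (the 4 members and the 3 ratios in both labels), the highest and the lowest value were tested for standing apart from the rest by Dixon's ratio, whose 95% critical value for 5 samples is 0.71. The *Il34* level of control-labelled replicate 2, 3.12 CPM, stood apart from the other 4 control-labelled libraries with a gap of 0.866 of the group's range. Chance flags about 1 in 20 groups, and 1 of 14 was flagged. The same library had the lowest *Csf1* level of all 10 libraries and the highest summed level of skeletal muscle genes (527 CPM).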

How the results depend on the processing

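*Tnfsf11* was lower in each of the 23 alternatives to its edgeR fit, with log2 fold changes of -0.62 to -0.44. Among these, the adjusted threshold of 0.1 and the unadjusted threshold of 0.05 reread the main fit, so their direction was fixed in advance. *Tnfsf11* was called in 2 of the 23: the DESeq2 Wald test (-0.57, adjusted p = 0.0051) and the unadjusted threshold (-0.58). Members called numbered 1 and 2 in these settings, where *Il34* (0.40) was the second. The unadjusted edgeR p of *Il34* was under 0.05 in 3 of 10 fits that left out 1 library, and was 0.0867 with library size only, 0.0607 with the replicate block, 0.269 with the osteoblast mean as a covariate (log2 fold change 0.28) and 0.118 with the osteoclast and macrophage mean (0.30). Leaving out 1 library at a time gave *Tnfsf11* adjusted p-values of 0.195 to 0.485 and no call. Over all genes, edgeR called 3 and DESeq2 98. *Csf1* turned to 0.0064 with the osteoclast and macrophage mean as a covariate, the cause of which was not tested. Leaving out 1 library gave *Tnfrsf11b* fitted values of -0.22 to 0.090 and exact-test differences of -0.23 to 0.066, *Il34* differences of 0.37 to 0.57, and *Csf1* to *Il34* ratios of -0.75 to -0.45 (log2). On the linear scale that ratio differed by -16.0 (exact permutation p = 0.0476). Relative to the osteoblast mean, a scale chosen after seeing the data, *Tnfrsf11b* was 0.20 and *Csf1* 0.17, with the sign turned.

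The replicate numbers were not shown to pair the libraries: deviations from group means correlated at -0.203, 0.139, -0.211, 0.0268 and -0.142 for numbers 1 to 5, and 0 of 10 libraries matched its own number best. With the replicate block, edgeR called 1 gene, and *Tnfsf11* had a log2 fold change of -0.57 (adjusted p = 0.480). Exact sign-flip tests over the pairs, which cannot pass 0.05 with 5 pairs, gave -0.57 for *Tnfsf11* and 0.46 for *Csf1* to *Tnfsf11* (both at the smallest p possible), and 0.42 for *Il34* (p = 0.125).

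Depth limits *Il34* most, at 43 to 91 counts per library.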
